A study of Drosophila melanogaster with 24 samples.

Results

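Untreated adult *Drosophila* were compared at 2 ages, 21 and 14 days after eclosion. The comparison used the 3 CWOFP and the 3 CTRL libraries, 6 of the 18 libraries with a column of gene counts and of 24 labelled samples in the series, chosen by the group names in their labels. CWOFP flies were w1118 control flies without fecal microbiota transfer (FMT) from rotenone-fed flies. They had been kept on yeast-glucose medium with the solvent DMSO for 7 days, from day 7 after eclosion, and then on yeast-glucose medium for another 7 days, and were collected on experimental day 14, at an age of 21 days. CTRL flies were w1118 flies collected on experimental day 7, at an age of 14 days, after the same 7 days on medium with DMSO. Neither group received rotenone, an inhibitor of mitochondrial complex I, or FMT according to the methods, although the protocol text in the labels names rotenone for every sample. Each bottle held as many male as female flies, and poly(A) RNA of whole adults was sequenced, so each library mixes both sexes and all tissues. Whether the medium of the second 7 days held DMSO is not given in the sources used here, nor is the number of flies per library of these groups or whether the replicates came from separate bottles. The p-values therefore measure the spread between these libraries, which may be in part technical. Age, day of collection, medium, and any batch of rearing, extraction, or sequencing differ together between the groups, so day and batch cannot be told apart. The study used both groups as the untreated side of its rotenone and FMT experiments.

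As background, the midgut of a fly secretes serine proteases, amylases, lipases, and lysozymes into its lumen, and its lining is renewed from stem cells throughout adult life. Aging of flies is known to be accompanied by a decline of egg production, of the response of the eye to light, and of gut function. In a whole fly the level of a transcript made in 1 tissue follows both the share of that tissue in the RNA and the transcript's level in its cells. In bulk RNA, fewer cells of a type and less RNA per cell cannot be told apart.

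The total count of the libraries ranged from 21063851 to 22369214 in the CWOFP group and from 17920498 to 29165130 in the CTRL group. Replicates differed by more than sampling noise, with a chi-square per degree of freedom of 22.4 to 159 over the 6 pairs. Several libraries stood apart in single features. The large mitochondrial rRNA *mt:lrRNA* took 7.63%, 5.44%, and 13.3% of the counts in the CWOFP libraries, against 2.46%, 5.18%, and 2.56% in the CTRL libraries. The summed level of the Turandot genes, which encode secreted stress proteins, was 118, 88.3, and 61 CPM in CWOFP libraries, against 94.8, 5292, and 31.3 CPM in CTRL libraries, so that CTRL replicate 2 was far above all others. CWOFP replicate 3 had more RNA of sarcomere genes than the other libraries (7782, 5828, and 14504 CPM in CWOFP libraries, against 6719, 6549, and 6065 CPM in CTRL libraries) and low but higher levels of larval and embryonic genes, such as *Lsp1alpha* (0, 0.214, and 3.44 CPM in the CWOFP libraries, against 0.154, 0.175, and 0.334 CPM in the CTRL libraries). CPM values are counts scaled to library size, here with the TMM method. They are not corrected for gene length, so levels are compared within a gene or a list only.

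Far more transcripts were lower than higher at 21 days. A gene was called a differentially expressed transcript (DET) where edgeR's quasi-likelihood test gave a p below 0.05 after Benjamini-Hochberg adjustment and the level differed by more than 1 on the log2 scale. Of 12437 genes tested 227 (1.83%) were lower and 4 (0.0322%) higher in CWOFP flies, 1.86% in all. The log2 fold changes of the 227 lower DETs ran down to -7.36, with a median of -2.05, whereas the median over all genes tested was 0.00. In all 231 DETs the 3 libraries of one group lay above the 3 of the other, and over all genes tested 1692 (13.6%) had every CWOFP library below every CTRL library and 638 (5.13%) above. At an unadjusted p under 0.05 there were 951 lower (7.65%) and 484 higher genes (3.89%). DESeq2 called 416 lower (3.18%) and 106 higher genes (0.81%) at the same thresholds, among them 225 of the lower and all 4 of the higher DETs. The calls depended on single libraries: the number of DETs was 54 without CTRL replicate 1, 64 without CTRL replicate 2, 99 without CTRL replicate 3, and 142 without CWOFP replicate 3, and of the lower DETs 53, 53, 97, and 114 remained. Without CWOFP replicates 1 and 2 it was 257 and 216, with 184 and 148 of the lower DETs. No DET changed sign in these 6 refits, and 40 of the lower DETs passed in each of them. Of the 231 DETs, 230 are protein coding genes. The lower DETs lay on all large chromosome arms, with 28 on X, 54 on 2L, 37 on 2R, 46 on 3L, and 62 on 3R. Among the lower DETs in no list were *CG14607* (0.174, 0.0427, and 0.0435 CPM in CWOFP libraries, against 3.5, 2.62, and 4.12 CPM in CTRL libraries) and *CG9988* (0.0436, 0, and 0.218 CPM in CWOFP libraries, against 3.15, 2.59, and 1.95 CPM in CTRL libraries), genes without a role known with certainty, with log2 fold changes of -5.15 and -4.75 (edgeR adjusted p = 0.0057 and 0.0178, kept in 6 and 3 of 6 refits). Of the DETs, 93 were members of at least 1 of 51 gene lists. Another 5 lists were added after the values were seen and are not part of this count. The share of lower DETs over all genes tested, 1.83%, applies beside the count of every list below.

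**Figure D1:**
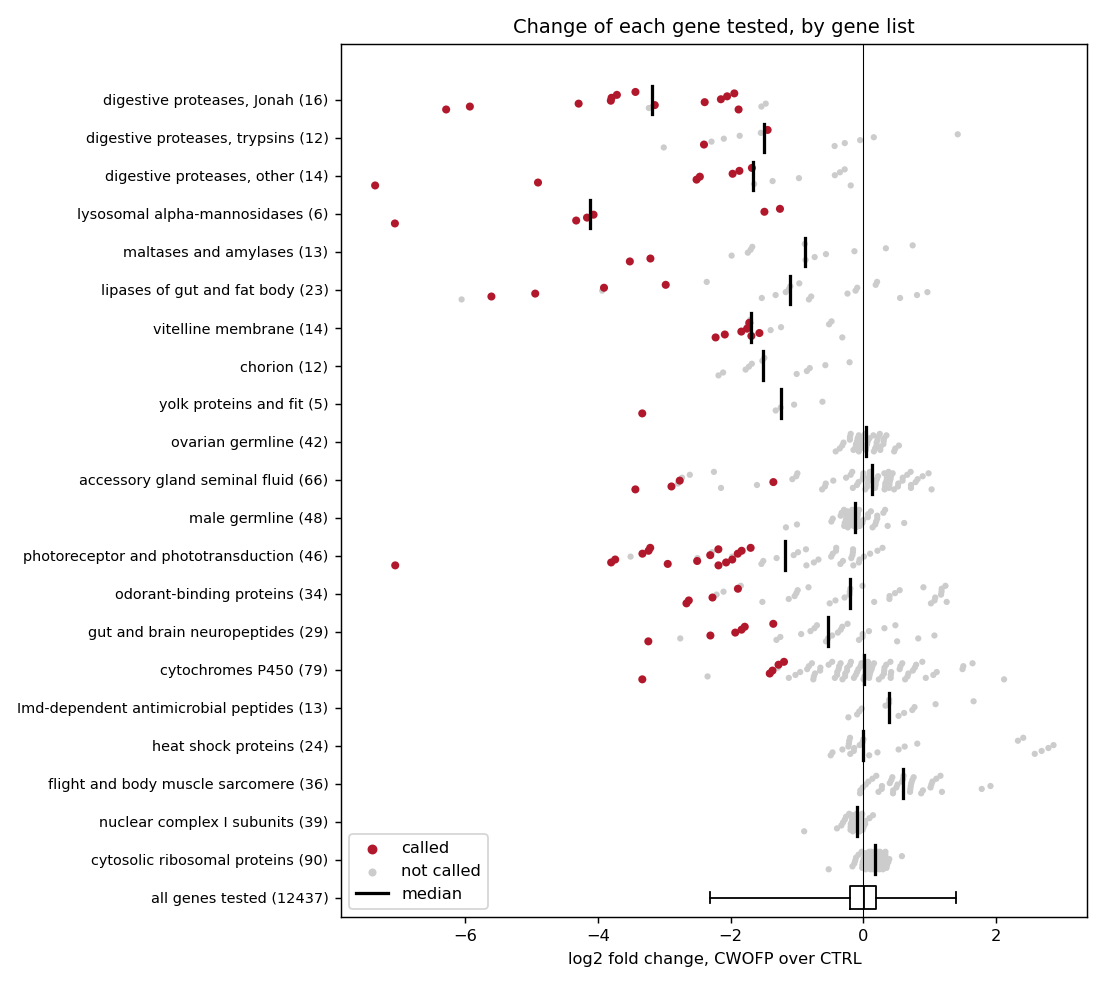
Log2 fold change of CWOFP over CTRL flies for the members tested of 21 gene lists, 1 point per gene, with DETs in red, other genes in grey, and the median as a black bar; the number of genes tested is in brackets. The box at the bottom shows the median and quartiles of all 12437 genes, with whiskers at percentiles 1 and 99. Red points lie to the left of 0 in the lists of gut enzymes, eggshell, seminal fluid, photoreceptor, odorant-binding, neuropeptide, and P450 genes, and the lists of immune, heat shock, muscle, complex I, and ribosomal genes hold none.

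Genes of digestion were lower in large numbers. The Jonah genes encode serine proteases of the midgut, and 13 of 16 tested were lower DETs, against 1.83% of all genes tested, with a median log2 fold change of -3.19. Every Jonah gene had its 3 CWOFP libraries below its 3 CTRL libraries, against 13.6% of all genes tested. Their summed level was 3193, 3856, and 3059.9 CPM in CWOFP libraries, against 17079, 19459, and 16448 CPM in CTRL libraries, a mean of 3370 ± 427 CPM and of 17662 ± 1588 CPM (SD, n = 3 each). Of the 13, the numbers still called were 13, 12, and 11 without CWOFP replicates 1, 2, and 3 in turn, and 6, 5, and 8 without CTRL replicates 1, 2, and 3. The counts of neighboring copies such as *Jon99Cii* and *Jon99Ciii* are uncertain, because the handling of reads that match several genes is not given in the sources used here.

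*Jon25Bii* (FBgn0031654, chromosome 2L, 4952243 to 4953136, minus strand) had 4.01, 1.97, and 2.22 CPM in CWOFP libraries, against 254, 134, and 286 CPM in CTRL libraries. Its groups were separated widely, and it fell in CWOFP flies (log2 fold change -6.29, SE 0.42, adjusted p = 0.00202 by edgeR), a call kept in all 6 refits that each left out 1 library. Its neighbor *Jon25Bi* had 7.54, 1.15, and 1.61 CPM in CWOFP libraries, against 237, 138, and 289 CPM in CTRL libraries (log2 fold change -5.93, SE 0.79, adjusted p = 0.0159 by edgeR, kept in 3 of 6 refits). *Jon25Biii* had 38.3, 12.5, and 20.3 CPM in CWOFP libraries, against 365, 589, and 509 CPM in CTRL libraries (log2 fold change -4.29, SE 0.45, adjusted p = 0.0057 by edgeR, kept in 5 of 6 refits). The 3 genes of this cluster thus had no overlap between the groups. *Jon99Ci* (FBgn0003358, chromosome 3R, 29925226 to 29926189, minus strand) had 15.4, 11.4, and 8.36 CPM in CWOFP libraries, against 146, 163, and 206 CPM in CTRL libraries, and it also fell in each refit (log2 fold change -3.81, SE 0.27, adjusted p = 0.00202 by edgeR). Members with smaller changes fell as well: *Jon65Aiii* had 946, 1178, and 915 CPM in CWOFP libraries, against 4067, 4740.0, and 3382 CPM in CTRL libraries (log2 fold change -1.94, SE 0.22, adjusted p = 0.00805 by edgeR, kept in 6 of 6 refits). The Jonah genes that were no DETs were *Jon44E* (log2 fold change -3.23, edgeR adjusted p = 0.0782), *Jon74E* (-1.54, adjusted p = 0.257), and *Jon99Fii* (-1.47, adjusted p = 0.0626).

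Other proteases of the gut changed in the same direction. In the list of further digestive proteases 7 of 14 genes tested were lower DETs, with a median log2 fold change of -1.66. Of these, the numbers still called were 6, 5, and 4 without CWOFP replicates 1, 2, and 3 in turn, and 4, 3, and 4 without CTRL replicates 1, 2, and 3. The predicted serine protease gene *CG18179* (FBgn0036023, chromosome 3L, 9639271 to 9640140, plus strand) had the largest decrease of all genes tested, with 0.262, 0.299, and 0.348 CPM in CWOFP libraries, against 35, 81.3, and 41.2 CPM in CTRL libraries. It was close to undetected in every CWOFP library (log2 fold change -7.36, SE 0.45, adjusted p = 0.00202 by edgeR, kept in 6 of 6 refits). Its neighbor *CG18180* had 38.2, 16.9, and 39 CPM in CWOFP libraries, against 834, 1135, and 973 CPM in CTRL libraries, likewise without overlap (log2 fold change -4.90, SE 0.38, adjusted p = 0.00202 by edgeR, kept in 6 of 6 refits). *CG30025* and *CG30031*, a pair of similar trypsin-like genes whose reads may be shared, had log2 fold changes of -2.51 and -2.46 (edgeR adjusted p = 0.0247 and 0.0296). Among the trypsins 2 of 12 were lower DETs, against 1.83% of all genes tested. Of the 2, 1 remained in each refit but that without CWOFP replicate 1, in which both did. They were *thetaTry*, which had 28.9, 25.8, and 42.5 CPM in CWOFP libraries, against 152, 195, and 188 CPM in CTRL libraries (log2 fold change -2.40, SE 0.22, adjusted p = 0.0028 by edgeR), and *alphaTry*, which had 1517, 1311, and 1104 CPM in CWOFP libraries, against 3213, 4761, and 3187 CPM in CTRL libraries (log2 fold change -1.44, SE 0.25, adjusted p = 0.0307 by edgeR). The median of the list was -1.49. *epsilonTry* just missed the threshold, with 125, 35.2, and 28.6 CPM in CWOFP libraries, against 447, 680.2, and 469.5 CPM in CTRL libraries (log2 fold change -3.01, edgeR adjusted p = 0.0536).

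The lysosomal alpha-mannosidases, enzymes that cut mannose from glycans, were lower throughout. All 6 genes of the family were DETs, with a median log2 fold change of -4.11. Of them, the numbers still called were 6, 5, and 4 without CWOFP replicates 1, 2, and 3 in turn, and 3, 2, and 3 without CTRL replicates 1, 2, and 3. *LManVI* (FBgn0032069, chromosome 2L, 8777661 to 8781252, minus strand) had 40.4, 41.3, and 20.8 CPM in CWOFP libraries, against 583, 513, and 703 CPM in CTRL libraries, with a wide gap between the groups (log2 fold change -4.07, SE 0.31, adjusted p = 0.00202 by edgeR, kept in 6 of 6 refits). *LManV* had 23.6, 13.5, and 5.88 CPM in CWOFP libraries, against 280.0, 267, and 362 CPM in CTRL libraries (log2 fold change -4.33, SE 0.49, adjusted p = 0.00733 by edgeR, kept in 5 of 6 refits). *LManIII* had a log2 fold change of -4.16 (edgeR adjusted p = 0.0303, kept in 2 of 6 refits). *LManIV* was nearly absent in CWOFP flies, with 3 counts over the CWOFP libraries and 459 over the CTRL libraries. Control flies of the same age that received FMT had 1.48, 2.03, and 0.757 CPM of it, against 0.131, 0, and 0 CPM in CWOFP libraries. The CTRL level was 146 times the CWOFP level with a 95% interval of 49.7 to 712 that covers counting error only (edgeR adjusted p = 0.00818). *LManI* and *LManII* changed least, with log2 fold changes of -1.26 and -1.49 (edgeR adjusted p = 0.0263 and 0.0155). The summed level of the family was 231, 319, and 202 CPM in CWOFP libraries, against 1572, 1443, and 1766 CPM in CTRL libraries.

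**Figure D2:**
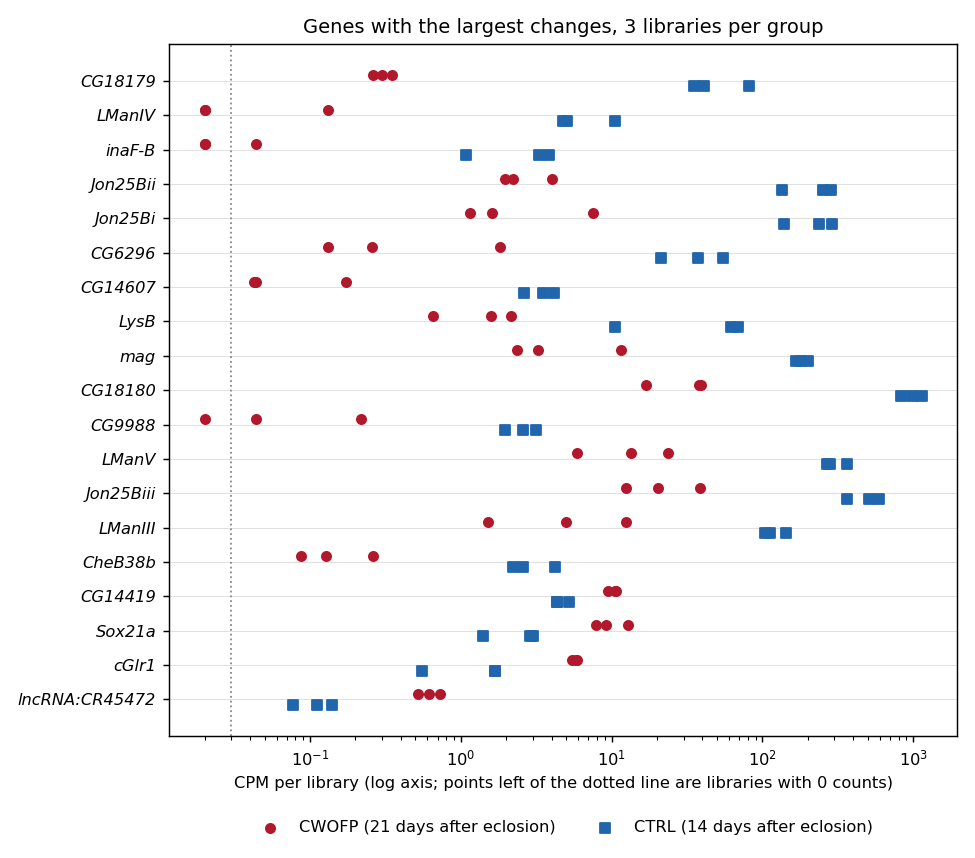
CPM in each library, on a log axis, of the 15 DETs with the lowest and the 4 with the highest log2 fold change, with CWOFP libraries as red circles and CTRL libraries as blue squares. The groups do not overlap in any gene; *CG18179* lies between 0.262 and 0.348 CPM in CWOFP libraries and between 35 and 81.3 CPM in CTRL libraries.

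Enzymes of starch and fat digestion were lower in part. Among 13 maltases and amylases only the alpha-amylase genes *Amy-d* and *Amy-p* were lower DETs, and they are near-identical copies whose counts are uncertain. *Amy-p* had 136, 64.2, and 44.2 CPM in CWOFP libraries, against 765, 1004, and 600.4 CPM in CTRL libraries (log2 fold change -3.21, SE 0.45, adjusted p = 0.0142 by edgeR). *Amy-d* had 35.1, 14.2, and 10.8 CPM in CWOFP libraries, against 251, 253, and 220.2 CPM in CTRL libraries (log2 fold change -3.52, SE 0.44, adjusted p = 0.0113 by edgeR). Both calls were kept with each CWOFP library or CTRL replicate 3 left out, and neither was kept without CTRL replicate 1 or 2. The maltase *Mal-A1* had 278, 520.4, and 413 CPM in CWOFP libraries, against 606, 953, and 532 CPM in CTRL libraries and was no DET (log2 fold change -0.73, edgeR adjusted p = 0.388). Of 23 lipases 4 were lower DETs, against 1.83% of all genes tested, and the list's median log2 fold change was -1.10. Of the 4, the numbers still called were 4, 3, and 4 without CWOFP replicates 1, 2, and 3 in turn, and 1, 0, and 2 without CTRL replicates 1, 2, and 3. Magro (*mag*), a lipase and cholesterol esterase that the gut secretes, had 2.35, 3.25, and 11.5 CPM in CWOFP libraries, against 180.3, 166, and 202 CPM in CTRL libraries (log2 fold change -4.94, SE 0.59, adjusted p = 0.0113 by edgeR). The predicted lipases *CG6296*, *CG31091*, and *CG18301* had log2 fold changes of -5.60, -3.91, and -2.98 (edgeR adjusted p = 0.0242, 0.0291, and 0.0107).

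Some genes that act on bacteria were lower DETs. The lysozyme genes *LysB* and *LysD* were the lower DETs of 5 tested, against 1.83% of all genes tested. At an unadjusted p under 0.05, 4 of the 5 were lower, against 7.65% of all genes tested. *LysB* had 2.14, 1.58, and 0.653 CPM in CWOFP libraries, against 62.2, 69, and 10.5 CPM in CTRL libraries (log2 fold change -4.96, SE 0.81, adjusted p = 0.0294 by edgeR). *LysD* had 6.41, 5.43, and 3.09 CPM in CWOFP libraries, against 56.7, 69.7, and 17.9 CPM in CTRL libraries (log2 fold change -3.21, SE 0.52, adjusted p = 0.0242 by edgeR). Their levels in CTRL replicate 3 were the lowest of the CTRL group, and both calls were kept only without that library. Reads of these similar copies may be shared. *PGRP-SC2*, an amidase that degrades peptidoglycan, was the only DET of 13 peptidoglycan recognition genes and had 36.1, 22.5, and 34 CPM in CWOFP libraries, against 176, 187, and 140.5 CPM in CTRL libraries (log2 fold change -2.38, SE 0.23, adjusted p = 0.00336 by edgeR, kept in 6 of 6 refits). The alkaline phosphatase genes *Alp10* and *Alp9* were lower DETs among 8 tested, against 1.83% of all genes tested. Their log2 fold changes were -2.01 and -1.78 (edgeR adjusted p = 0.0103 and 0.013, kept in 6 and 4 of 6 refits). No Imd-dependent antimicrobial peptide gene of 13 tested (median 0.39) and none of 22 Toll-dependent genes (median 0.09) was a DET by edgeR. DESeq2 called 1 Toll-dependent gene lower and none of the others. At an unadjusted p under 0.05, 0 Imd-dependent and 1 Toll-dependent gene were lower and none was higher. Their levels varied within groups, as in *DptA*, the diptericin gene, which had 53, 38.3, and 134 CPM in CWOFP libraries, against 101, 36, and 2.89 CPM in CTRL libraries, and the groups overlapped. The mucin-like gene *CG4835* was the only DET of 14 genes of the peritrophic matrix and gut mucins, a layer that lines the gut lumen (log2 fold change -2.80, edgeR adjusted p = 0.0271, kept in 2 of 6 refits, median of the list 0.13). No sterol transport gene of 8 was a DET by edgeR (2 were lower at an unadjusted p under 0.05). DESeq2, which tested another set of genes, called 2 of the list lower.

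The summed levels were also compared over all libraries of the series. In summed CPM the 3 CWOFP libraries ranked 1 to 3 from the bottom of all 18 libraries for the Jonah genes, the other digestive proteases, the alpha-mannosidases, the lipases, the lysozymes, and the alkaline phosphatases, while the CTRL libraries ranked 14 to 18 for the Jonah genes and 15 to 18 for the alpha-mannosidases. For the trypsins the CWOFP libraries ranked between 1 and 4, for the maltases and amylases and for the peptidoglycan recognition genes between 2 and 5, for the gut mucins between 2 and 8, and for sterol transport between 1 and 8. The low ranks were not particular to gut genes, since the CWOFP libraries also ranked 1 to 3 for the glycolytic genes, which held no DET. CWFP flies, control flies of the same age that received FMT from rotenone-fed flies, had a summed Jonah level of 8072, 9719, and 6026 CPM. These values lay between those of CWOFP and CTRL flies. Flies of the same age with rotenone history had 15638, 18086, and 18985 CPM with FMT from control flies (PWFC). Without FMT (PWOFC) they had 12157, 12287, and 7374 CPM. The low Jonah level of CWOFP flies was thus not shared by all flies collected at 21 days.

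**Figure D3:**
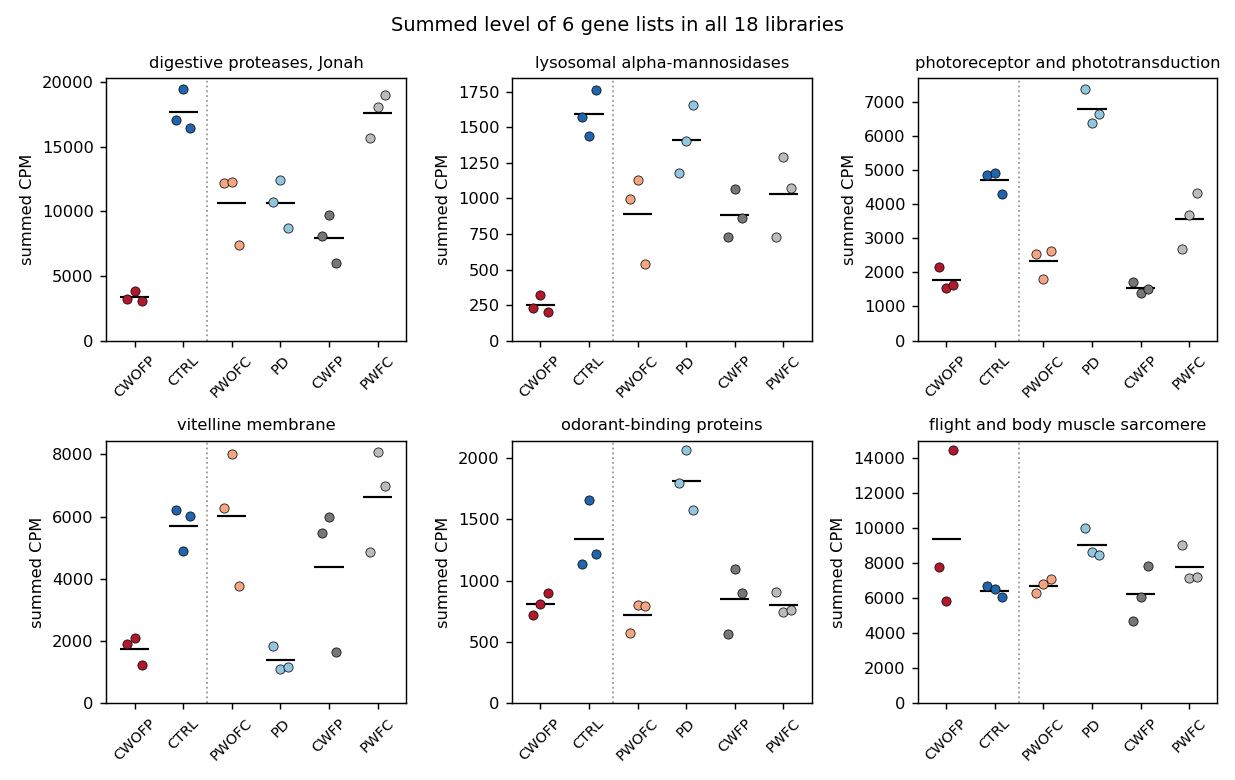
Summed CPM of the members of 6 gene lists in each of 18 libraries, 1 point per library with the group mean as a bar. CWOFP and CTRL are left of the dotted line; to its right are flies with rotenone history (PWOFC without and PWFC with FMT, PD at the end of rotenone) and control flies with FMT (CWFP). CWOFP libraries are the lowest of all for the Jonah genes and the alpha-mannosidases, and CWOFP replicate 3 is the highest of all for the sarcomere genes, at 14504 CPM.

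Genes of the eye formed the other large group of decreases. Phototransduction in the fly eye runs from rhodopsin through a G protein and phospholipase C to the TRP channels, in membranes built and held by proteins of the rhabdomere. Of 46 photoreceptor genes tested 16 were lower DETs, none was higher, and the median log2 fold change was -1.18. In 26 of them every CWOFP library was below every CTRL library, against 13.6% of all genes tested. Their summed level was 2163, 1542, and 1619 CPM in CWOFP libraries, against 4865, 4921, and 4305 CPM in CTRL libraries. Of the 16 DETs, the numbers still called were 16, 12, and 8 without CWOFP replicates 1, 2, and 3 in turn, and 2, 2, and 8 without CTRL replicates 1, 2, and 3. CWOFP replicate 1 was the highest of its group for 14 of the 16.

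The DETs covered several steps of the light response. For the G protein, *Gbeta76C* had 6.85, 2.05, and 4.79 CPM in CWOFP libraries, against 38.7, 55.3, and 41.1 CPM in CTRL libraries (log2 fold change -3.24, SE 0.42, adjusted p = 0.0114 by edgeR). *Ggamma30A* had a log2 fold change of -1.83 (edgeR adjusted p = 0.0187). The channel gene *trp* had 53.5, 18.8, and 20.7 CPM in CWOFP libraries, against 185, 153, and 146 CPM in CTRL libraries (log2 fold change -2.31, SE 0.41, adjusted p = 0.0317 by edgeR). *inaC*, the protein kinase C of the eye, had 3.79, 1.15, and 2.0 CPM in CWOFP libraries, against 29.2, 38.5, and 29.7 CPM in CTRL libraries, with CWOFP libraries far below the CTRL libraries (log2 fold change -3.74, SE 0.42, adjusted p = 0.00733 by edgeR, kept in 5 of 6 refits). *inaD*, the scaffold that holds channel and kinase together, fell with it (-2.95, edgeR adjusted p = 0.011), as did *ninaC*, a myosin of the photoreceptor (-3.21, adjusted p = 0.0169). *Arr1*, an arrestin that shuts off rhodopsin, had 34.2, 7.82, and 10.7 CPM in CWOFP libraries, against 224, 324, and 225 CPM in CTRL libraries (log2 fold change -3.80, SE 0.58, adjusted p = 0.0236 by edgeR, kept in 2 of 6 refits). Chaoptin (*chp*), an adhesion protein of the rhabdomere, had 11.8, 4.02, and 6.05 CPM in CWOFP libraries, against 83.7, 74.7, and 72.1 CPM in CTRL libraries (log2 fold change -3.33, SE 0.38, adjusted p = 0.00773 by edgeR, kept in 5 of 6 refits). *inaF-B*, a partner of the TRP channel, had 1 count over the CWOFP libraries and 190 over the CTRL libraries, a CTRL level 182 times the CWOFP level with an interval for counting error of 32.2 to 7210 (edgeR adjusted p = 0.0114). Its exons overlap those of other *inaF* genes on the same strand, so its counts are uncertain.

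Several eye genes with a similar change were no DETs. The major rhodopsin gene *ninaE* had 289, 62.8, and 45.8 CPM in CWOFP libraries, against 1540.0, 1798, and 1442 CPM in CTRL libraries, without overlap, but the spread of the CWOFP group was wide (log2 fold change -3.51, SE 0.72, edgeR adjusted p = 0.0618). The opsin genes *Rh6*, *Rh4*, and *Rh5* had log2 fold changes of -2.50, -1.54, and -1.51 (edgeR adjusted p = 0.052, 0.126, and 0.298), whereas *Rh2*, the opsin of the ocelli, had 2.7, 3.63, and 4.53 CPM in CWOFP libraries, against 13, 21.4, and 12.9 CPM in CTRL libraries and was a DET (log2 fold change -2.07, SE 0.31, adjusted p = 0.0163 by edgeR). *ninaB*, the carotenoid oxygenase that makes the chromophore, was lower (-1.98, edgeR adjusted p = 0.013), as was *ort*, the histamine receptor of the neurons behind the photoreceptors (-2.18, adjusted p = 0.0249). Outside the list and named after their values were seen, the lens protein gene *retinin* (log2 fold change -3.12), calphotin (*Cpn*, -2.54), and the retinol dehydrogenase gene *rdhB* (-2.61) were also lower DETs (edgeR adjusted p = 0.0096, 0.0157, and 0.0114).

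Some genes of smell and taste were lower, and others had higher values without passing the test. Odorant-binding proteins carry small hydrophobic molecules in sensory hairs, and some are made in other organs. Of 34 tested 4 were lower DETs, against 1.83% of all genes tested, with a median log2 fold change of -0.21. Of the 4, the numbers still called were 4, 2, and 3 without CWOFP replicates 1, 2, and 3 in turn, and 2, 2, and 2 without CTRL replicates 1, 2, and 3. *Obp56d* (FBgn0034470, chromosome 2R, 19702924 to 19703915, minus strand) had 47, 51.8, and 57.5 CPM in CWOFP libraries, against 266, 313, and 207 CPM in CTRL libraries, close together within each group (log2 fold change -2.27, SE 0.19, adjusted p = 0.00249 by edgeR, kept in 6 of 6 refits). *Obp56a* had 6.37, 5.73, and 7.05 CPM in CWOFP libraries, against 29.9, 57.8, and 35.7 CPM in CTRL libraries (log2 fold change -2.63, SE 0.28, adjusted p = 0.0057 by edgeR, kept in 6 of 6 refits). *Obp56g* and *Obp49a* had log2 fold changes of -2.67 and -1.89 (edgeR adjusted p = 0.0212 and 0.0376). In contrast, 7 of the 34 had every CWOFP library above every CTRL library, against 5.13% of all genes tested. None of the 34 was called higher by edgeR. DESeq2, which tested another set of genes, called 6 of the list higher, against 0.81% of all the genes it tested. *Os-C*, named after its values were seen, had 19.1, 11.4, and 21.9 CPM in CWOFP libraries, against 6.19, 10.6, and 6.01 CPM in CTRL libraries (log2 fold change 1.26, edgeR adjusted p = 0.129). The CheB family of taste hairs was a list chosen after its values were seen. All 7 genes tested had every CWOFP library below every CTRL library, against 13.6% of all genes tested, and 3 were DETs. Of the 3, the numbers still called were 2, 2, and 2 without CWOFP replicates 1, 2, and 3 in turn, and 1, 1, and 2 without CTRL replicates 1, 2, and 3. The family was measured at low levels: *CheB38b* had 0.0872, 0.128, and 0.261 CPM in CWOFP libraries, against 2.58, 4.2, and 2.23 CPM in CTRL libraries (log2 fold change -4.15, SE 0.51, adjusted p = 0.0103 by edgeR, kept in 6 of 6 refits). In the takeout family of juvenile hormone binding proteins, also listed after the fact, 3 of 13 were lower DETs. *Jhbp13* had 26.4, 25.6, and 26.1 CPM in CWOFP libraries, against 114, 144, and 116 CPM in CTRL libraries (log2 fold change -2.20, SE 0.15, adjusted p = 0.00202 by edgeR, kept in 6 of 6 refits). *Jhbp14* had a log2 fold change of -1.43 (edgeR adjusted p = 0.0114), and takeout (*to*), a clock-controlled gene linked to feeding, one of -1.06 (edgeR adjusted p = 0.029). Takeout was also the only DET of 21 circadian clock genes (median 0.02).

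Several peptide hormone genes were lower at 21 days. Of 29 neuropeptide genes tested 6 were lower DETs, against 1.83% of all genes tested, none was higher, and the median log2 fold change was -0.53. Of the 6, the numbers still called were 5, 3, and 1 without CWOFP replicates 1, 2, and 3 in turn, and 0, 0, and 1 without CTRL replicates 1, 2, and 3. Some of them were measured at a few CPM or less. Drosulfakinin (*Dsk*), a satiety peptide, had 0.48, 0.128, and 0.305 CPM in CWOFP libraries, against 2.54, 3.43, and 3.17 CPM in CTRL libraries (log2 fold change -3.24, SE 0.47, adjusted p = 0.0155 by edgeR). Myoinhibiting peptide (*Mip*) had 1.0, 0.812, and 1.26 CPM in CWOFP libraries, against 5.16, 5.74, and 5.01 CPM in CTRL libraries, with groups well apart (log2 fold change -2.30, SE 0.30, adjusted p = 0.0114 by edgeR, kept in 4 of 6 refits). The diuretic hormone gene *Dh44* had 1.0, 1.75, and 1.26 CPM in CWOFP libraries, against 5.96, 4.87, and 5.18 CPM in CTRL libraries (log2 fold change -1.93, SE 0.30, adjusted p = 0.0217 by edgeR). *Pdf*, the peptide of the clock neurons, had 0.916, 0.812, and 1.09 CPM in CWOFP libraries, against 3.0, 3.64, and 3.9 CPM in CTRL libraries (log2 fold change -1.84, SE 0.30, adjusted p = 0.0242 by edgeR). *FMRFa* and *sNPF* had log2 fold changes of -1.79 and -1.36 (edgeR adjusted p = 0.0178 and 0.0499).

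In the insulin and adipokinetic hormone list 3 of 24 genes were lower DETs, the list's median being 0.11. The insulin-like peptide gene *Ilp2* had 0.0872, 0.427, and 0.174 CPM in CWOFP libraries, against 1.73, 2.59, and 1.95 CPM in CTRL libraries (log2 fold change -3.10, SE 0.53, adjusted p = 0.0283 by edgeR). *Akh*, the hormone that mobilizes stored fat, had 0.567, 0.299, and 1.0 CPM in CWOFP libraries, against 3.65, 7.04, and 3.45 CPM in CTRL libraries (log2 fold change -2.86, SE 0.51, adjusted p = 0.0327 by edgeR). *tobi*, a glucosidase gene controlled by both hormones, had 55.7, 105, and 97.6 CPM in CWOFP libraries, against 185, 208, and 237 CPM in CTRL libraries (log2 fold change -1.23, SE 0.24, adjusted p = 0.044 by edgeR). The 3 calls were kept in 2, 1, and 1 of 6 refits. The receptors *InR* and *AkhR* were no DETs (log2 fold changes 0.61 and 0.12, edgeR adjusted p = 0.449 and 0.916). Of 21 synaptic and neuronal genes, a list chosen after its values were seen, *nSyb* and *Syt4*, which act in vesicle release, were lower DETs (log2 fold changes -1.58 and -1.19, edgeR adjusted p = 0.0155 and 0.044, kept in 4 and 1 of 6 refits). The neuronal marker *elav* had 6.67, 5.04, and 6.4 CPM in CWOFP libraries, against 8.62, 6.65, and 6.23 CPM in CTRL libraries, with overlapping groups (log2 fold change -0.19, edgeR adjusted p = 0.907). No gene of dopamine synthesis, transport, and reception (17 tested, median -0.37), of the nicotinic receptor (9 tested, median 0.11), or of the mitophagy and parkinsonism list (21 tested, median -0.03) was a DET by edgeR. At an unadjusted p under 0.05 there were 5, 1, and 1 lower genes and no higher one in these lists. DESeq2 called 1 lower gene in the mitophagy list and none in the others.

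Several eggshell genes were lower, while no gene of the female germline was called. The vitelline membrane is the inner layer of the eggshell, made by follicle cells, and 7 of its 14 genes tested were lower DETs (median -1.70). Of them, the numbers still called were 6, 7, and 5 without CWOFP replicates 1, 2, and 3 in turn, and 1, 1, and 1 without CTRL replicates 1, 2, and 3. The summed level was 1914, 2101, and 1235 CPM in CWOFP libraries, against 6212, 4896, and 6012 CPM in CTRL libraries. *Vm32E* (FBgn0014076, chromosome 2L, 11171167 to 11171665, minus strand) had 48.5, 54.8, and 40.8 CPM in CWOFP libraries, against 191, 239, and 209 CPM in CTRL libraries, tightly grouped (log2 fold change -2.09, SE 0.17, adjusted p = 0.00246 by edgeR, kept in 6 of 6 refits). *Vm26Ab* had 329, 331, and 165 CPM in CWOFP libraries, against 1066, 914, and 930.4 CPM in CTRL libraries (log2 fold change -1.75, SE 0.29, adjusted p = 0.0246 by edgeR). *Vm34Ca* had 219, 477, and 186 CPM in CWOFP libraries, against 1552, 1253, and 1496 CPM in CTRL libraries (log2 fold change -2.23, SE 0.36, adjusted p = 0.0241 by edgeR). The outer layer showed the same direction without a call: all 12 chorion genes had negative log2 fold changes, with a median of -1.51, but none was a DET by edgeR or DESeq2, and 2 were lower at an unadjusted p under 0.05. The chorion gene *Cp36* had 1707, 697, and 826 CPM in CWOFP libraries, against 1857, 1601, and 2676 CPM in CTRL libraries, and the groups overlapped (log2 fold change -0.85, edgeR adjusted p = 0.446). *fit*, a female-specific gene of fat tissue that acts in feeding, had 3.31, 10.9, and 5.53 CPM in CWOFP libraries, against 105, 45.6, and 57.2 CPM in CTRL libraries (log2 fold change -3.33, SE 0.48, adjusted p = 0.0155 by edgeR, kept in 2 of 6 refits), and it shares exon bases with genes on both strands, so that its reads may be mixed. The yolk protein genes had log2 fold changes of -1.04 (*Yp1*), -1.25 (*Yp2*), and -1.32 (*Yp3*) and were no DETs by edgeR (adjusted p = 0.213, 0.11, and 0.167), although every CWOFP library lay below every CTRL library. *Yp2* had 4070.0, 4243, and 2312 CPM in CWOFP libraries, against 9807, 6423, and 10170.0 CPM in CTRL libraries. Of 42 genes of the ovarian germline none was a DET by edgeR or DESeq2, 0 were lower and 3 higher at an unadjusted p under 0.05, and the median was 0.04. *CycB*, a mitotic cyclin stored in eggs, had 1411, 1622, and 1458 CPM in CWOFP libraries, against 1687, 911, and 1923 CPM in CTRL libraries, with CTRL replicate 2 the lowest.

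Some genes of the accessory gland and ejaculatory bulb were lower, and no gene of the male germline was called. Of 66 accessory gland and ejaculatory bulb genes 4 were lower DETs, against 1.83% of all genes tested, the list's median being 0.14. Of the 4, the numbers still called were 2, 3, and 3 without CWOFP replicates 1, 2, and 3 in turn, and 1, 0, and 1 without CTRL replicates 1, 2, and 3. *Ebp*, an ejaculatory bulb protein, had 31.4, 16, and 54.7 CPM in CWOFP libraries, against 286, 407, and 458 CPM in CTRL libraries (log2 fold change -3.44, SE 0.44, adjusted p = 0.0114 by edgeR, kept in 5 of 6 refits). The seminal fluid gene *Sfp24Bb* had 2.4, 2.05, and 6.7 CPM in CWOFP libraries, against 19.1, 34.2, and 32.8 CPM in CTRL libraries (log2 fold change -2.89, SE 0.48, adjusted p = 0.0249 by edgeR). *Est-6*, an esterase of the ejaculate, had 68.7, 132, and 110.4 CPM in CWOFP libraries, against 258, 264, and 307 CPM in CTRL libraries (log2 fold change -1.36, SE 0.23, adjusted p = 0.0291 by edgeR). *Sfp24Ba* had a log2 fold change of -2.77 (edgeR adjusted p = 0.0326). None of 48 genes of the male germline was a DET by edgeR or DESeq2, none had an unadjusted p under 0.05, and their median was -0.12. The male-specific RNA *lncRNA:roX1* had 51.9, 88.8, and 73.7 CPM in CWOFP libraries, against 99.5, 90.9, and 84.9 CPM in CTRL libraries (log2 fold change -0.30, edgeR adjusted p = 0.687).

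Among metabolic genes the decreases were scattered. Of 79 cytochromes P450 tested 5 were lower DETs, against 1.83% of all genes tested. The median was 0.00, and 40 had positive and 39 negative log2 fold changes. *Cyp4d21*, a P450 of the fat tissue of the head, had 2.48, 2.14, and 4.44 CPM in CWOFP libraries, against 33, 31.4, and 30.7 CPM in CTRL libraries (log2 fold change -3.33, SE 0.29, adjusted p = 0.00252 by edgeR, kept in 6 of 6 refits). *Cyp28d1* had 51.4, 32.9, and 31.1 CPM in CWOFP libraries, against 88.6, 109, and 95.4 CPM in CTRL libraries (log2 fold change -1.28, SE 0.23, adjusted p = 0.0326 by edgeR), and *Cyp4d20* and *Cyp4ac2* had log2 fold changes of -1.41 and -1.37 (edgeR adjusted p = 0.0235 and 0.0488). Of the 5, the numbers still called were 4, 1, and 1 without CWOFP replicates 1, 2, and 3 in turn, and 1, 1, and 1 without CTRL replicates 1, 2, and 3. In the breakdown of tyrosine, *Hpd* and *hgo*, which encode successive dioxygenases, were lower DETs among 6 genes tested. *Hpd* had 21.9, 24.4, and 25.8 CPM in CWOFP libraries, against 59.3, 102, and 71.6 CPM in CTRL libraries (log2 fold change -1.63, SE 0.22, adjusted p = 0.0124 by edgeR, kept in 6 of 6 refits). *hgo* had 7.98, 12.7, and 10.3 CPM in CWOFP libraries, against 21.8, 38.3, and 26 CPM in CTRL libraries (log2 fold change -1.42, SE 0.27, adjusted p = 0.0414 by edgeR, kept in none). The UDP-glycosyltransferase *Ugt37B1* was the only DET of 31 in its family (log2 fold change -2.36, edgeR adjusted p = 0.0392, kept in no refit). The cuticle protein genes *Cpr11B*, *Cpr47Ee*, and *Cpr49Ab* were lower DETs of 30 tested (log2 fold changes -3.68, -1.85, and -1.15), while the list's median was 0.30. Of the 3, the numbers still called were 2, 1, and 1 without CWOFP replicates 1, 2, and 3 in turn, and 1, 0, and 0 without CTRL replicates 1, 2, and 3. Of 22 genes of lipid synthesis and storage none was a DET by edgeR, 8 were lower and 1 higher at an unadjusted p under 0.05, and 1 was lower by DESeq2. *apolpp*, the main lipoprotein of the hemolymph, had 895, 1467, and 833 CPM in CWOFP libraries, against 3513, 2057, and 2686 CPM in CTRL libraries, without overlap (log2 fold change -1.31, edgeR adjusted p = 0.0782).

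In a list of 19 blood cell genes chosen after its values were seen, 3 were lower DETs. Of the 3, the numbers still called were 3, 2, and 2 without CWOFP replicates 1, 2, and 3 in turn, and 1, 1, and 2 without CTRL replicates 1, 2, and 3. Hemolectin (*Hml*), a clotting protein, had 27, 29, and 26.2 CPM in CWOFP libraries, against 84.5, 80.5, and 74.1 CPM in CTRL libraries, close together within each group (log2 fold change -1.48, SE 0.13, adjusted p = 0.00273 by edgeR, kept in 6 of 6 refits). The prophenoloxidase genes *PPO1* and *PPO2*, which act in melanization, had log2 fold changes of -2.07 and -1.53 (edgeR adjusted p = 0.0114 and 0.0298, kept in 4 and 1 of 6 refits). Other markers of these cells did not pass the test: *NimC1* had 2.4, 1.07, and 1.35 CPM in CWOFP libraries, against 2.31, 2.27, and 2.62 CPM in CTRL libraries, with overlapping groups.

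Only 4 DETs were higher at 21 days, and none of these calls was kept in more than 2 of the 6 refits. *Sox21a* (FBgn0036411, chromosome 3L, 14103481 to 14108118, minus strand), a transcription factor of intestinal progenitor cells, had 12.9, 9.14, and 7.92 CPM in CWOFP libraries, against 3.0, 2.87, and 1.39 CPM in CTRL libraries (log2 fold change 2.09, SE 0.36, adjusted p = 0.0307 by edgeR, kept in 2 of 6 refits). *cGlr1*, a sensor of viral RNA, had 5.45, 5.85, and 5.79 CPM in CWOFP libraries, against 1.69, 1.68, and 0.557 CPM in CTRL libraries, nearly equal among the CWOFP libraries (log2 fold change 2.15, SE 0.41, adjusted p = 0.0439 by edgeR, kept in no refit). *CG14419* had 10.7, 9.49, and 10.5 CPM in CWOFP libraries, against 4.31, 5.21, and 4.34 CPM in CTRL libraries (log2 fold change 1.21, SE 0.22, adjusted p = 0.0337 by edgeR, kept in 1 of 6 refits). The noncoding RNA *lncRNA:CR45472* had 0.61, 0.726, and 0.522 CPM in CWOFP libraries, against 0.0769, 0.14, and 0.111 CPM in CTRL libraries, close to the limit of detection (log2 fold change 2.50, SE 0.46, adjusted p = 0.0359 by edgeR, kept in no refit). In a list of 12 intestinal progenitor genes chosen after these values were seen, *Sox21a* was the only DET by edgeR, and the median was 0.65. Every CWOFP library was above every CTRL library in 6 of them, against 5.13% of all genes tested. At an unadjusted p under 0.05, 6 were higher, against 3.89% of all genes tested. DESeq2 called 4 of them higher, against 0.81% of the genes it tested. The stem cell factor *esg* had 8.37, 5.3, and 5.53 CPM in CWOFP libraries, against 4.81, 4.09, and 2.78 CPM in CTRL libraries (log2 fold change 0.77, edgeR adjusted p = 0.394). *upd3*, a cytokine of damaged gut, had 19.8, 8.67, and 6.4 CPM in CWOFP libraries, against 5.85, 5.11, and 3.62 CPM in CTRL libraries (log2 fold change 1.32, edgeR adjusted p = 0.257). Neither *esg* nor *upd3* was a DET by edgeR.

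Some lists held members with higher values at 21 days but no DET. Of 36 sarcomere genes 33 had positive log2 fold changes, with a median of 0.59, none was a DET by edgeR or DESeq2, and 8 were higher at an unadjusted p under 0.05. The groups overlapped in most members, and CWOFP replicate 3 was the highest library: myosin heavy chain (*Mhc*) had 501, 447, and 1565 CPM in CWOFP libraries, against 639, 482, and 603 CPM in CTRL libraries (log2 fold change 0.60, edgeR adjusted p = 0.757). Of 24 heat shock genes none was a DET by edgeR, 7 were higher at an unadjusted p under 0.05, and the median was close to 0. DESeq2, which tested another set of genes, called 6 of the list higher. The *Hsp70* copies, whose reads cannot be told apart with certainty, had the largest log2 fold changes of the list, between 2.33 (*Hsp70Bb*) and 2.87 (*Hsp70Bbb*): *Hsp70Bc*, named after its values were seen, had 7.85, 1.75, and 3.22 CPM in CWOFP libraries, against 1.0, 0.42, and 0.668 CPM in CTRL libraries (log2 fold change 2.69, edgeR adjusted p = 0.0888). Every CWOFP library was above every CTRL library for it, and CWOFP replicate 1 was the highest. Of 90 cytosolic ribosomal protein genes 80 had positive log2 fold changes, none had an unadjusted p under 0.05 or was called by DESeq2, and the median of 0.17 turned negative without CWOFP replicate 1.

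Housekeeping pathways showed small shifts. The median log2 fold change was -0.10 over 39 nuclear subunits of complex I, -0.14 over 45 genes of complexes III and IV and of ATP synthase, and -0.21 over 12 protein coding genes of the mitochondrial genome. No member was a DET by edgeR or DESeq2, with 0, 0, and 2 lower and no higher gene at an unadjusted p under 0.05, and all 3 medians turned positive without CTRL replicate 2. The complex I subunit gene *ND-75* had 306, 331, and 303 CPM in CWOFP libraries, against 353, 380.2, and 388 CPM in CTRL libraries (log2 fold change -0.19, edgeR adjusted p = 0.745). Of 23 glycolytic genes (median -0.16) and 48 proteasome subunits (median -0.08) none had an unadjusted p under 0.05 or was called by DESeq2. Of 18 chaperone genes of the endoplasmic reticulum (median -0.27) none was a DET by edgeR or DESeq2, and 4 were lower at an unadjusted p under 0.05. In 9 of the 18 every CWOFP library was below every CTRL library, against 13.6% of all genes tested. The disulfide isomerase gene *Pdi* had 559, 594, and 517 CPM in CWOFP libraries, against 801, 829, and 822 CPM in CTRL libraries (log2 fold change -0.49, edgeR adjusted p = 0.231). Antioxidant genes (22 tested, median -0.14) and glutathione S-transferases (32 tested, median -0.06) held no DET by edgeR or DESeq2, with 2 and 1 lower and 0 and 1 higher genes at an unadjusted p under 0.05. The lists of metallothioneins, histones, Turandot genes, mitochondrial ribosomal proteins, vacuolar ATPase, larval proteins, and early zygotic genes held no DET by edgeR either. At an unadjusted p under 0.05, 4 vacuolar ATPase genes and 1 histone gene were lower and 1 larval and 2 early zygotic genes were higher. DESeq2 called 1 vacuolar ATPase gene lower and 1 larval gene higher.

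The same 7 days were also covered in flies that had received rotenone, by PWOFC flies (rotenone for the first 7 days, then 7 days without FMT) and PD flies (taken at the end of the rotenone feeding). These 6 libraries are separate from those above. PD flies were collected at the end of rotenone feeding and PWOFC flies 7 days after it. Time off rotenone thus differs together with age between these groups, and their effects cannot be told apart. Between them 2901 of 12436 genes tested (23.3%) were lower and 1199 (9.64%) were higher in PWOFC flies by the same test, far more than between CWOFP and CTRL flies. With all 6 groups in 1 fit they were 1213 lower and 1175 higher genes, so that the excess of lower genes was no longer seen. Of the 227 genes lower in CWOFP flies 226 were tested, of which 117 were lower and 15 higher. Whether the change of a gene between the ages differed by rotenone history was tested as an interaction over the 12 libraries, in which 4760 of 12817 genes (37.1%) had an adjusted p under 0.05, 2997 (23.4%) with a more negative and 1763 (13.8%) with a more positive change in flies without rotenone. Of the 227 lower DETs 110 passed, 104 with a more negative change without rotenone. The 227 genes were chosen for a negative change in 6 of the 12 libraries, which favors a more negative value here, so this count is a description. The direction of the balance over all genes depended on the scaling: 1276 were more negative and 3089 more positive with upper quartile scaling, and 1788 and 2551 with the mitochondrial rRNA left out, an alternative chosen after the data were seen. The counts also depended on the fit. With all 6 groups in 1 fit the interaction passed for 347 genes and for 50 of the 227, 49 with a more negative change. With 1 library left out the number of negative ones among the 227 was between 63 and 101. Over all genes, the number that passed in either direction was 1651 without PD replicate 1 and 2360 without PWOFC replicate 1. It was 2526 without CTRL replicate 3 and 2962 without CTRL replicate 1.

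The groups of genes differed in this test. Over all genes 23.4% passed with a more negative and 13.8% with a more positive change in untreated flies. The gut enzyme lists differed among themselves. Of 16 Jonah genes 12 and of the alpha-mannosidases all 6 passed with a more negative change in untreated flies, and 9 and 4 did with all 6 groups in 1 fit. Of 12 trypsins 3 and of 14 other digestive proteases 5 passed with a more negative change, and 0 and 1 with a more positive one. The lipases passed in equal numbers, 5 of 24 in each direction. The counts of trypsins with a more negative change and of lipases were near the shares over all genes. Among the maltases and amylases 12 of 13 were lower in PWOFC than in PD flies (median -2.40), and 2 passed with a more negative and 7 with a more positive change in untreated flies. The median Jonah change between PWOFC and PD flies was -0.05, and none of the 16 was a DET by edgeR there. *CG18180* had 475, 445, and 235 CPM in PWOFC libraries, against 243, 589, and 359.6 CPM in PD libraries (log2 fold change -0.05, edgeR adjusted p = 0.919, interaction adjusted p = 0.00123). For the vitelline membrane the directions were opposite: 10 of 14 genes were higher in PWOFC than in PD flies (median 2.20), and 11 of 14 passed the interaction test. *Vm32E* had 183, 312, and 136 CPM in PWOFC libraries, against 43.8, 15.1, and 39.5 CPM in PD libraries (log2 fold change 2.67, edgeR adjusted p = 0.00671, interaction adjusted p = 0.00121). The same held for *fit* and the yolk protein genes, all 5 genes of whose list passed the interaction test, also with all 6 groups in 1 fit. Higher levels in PWOFC flies were not particular to these genes. Of 42 ovarian germline genes 33 were higher than in PD flies (median 1.35), against 9.64% of all genes. In the interaction 34 of the 42 passed with a more negative change. Of 48 male germline genes 32 were lower in PWOFC flies (median -1.39), against 23.3% of all genes. With a more positive change 22 of the 48 passed. The male-specific RNAs *lncRNA:roX1* and *lncRNA:roX2* were also lower in PWOFC than in PD flies (log2 fold changes -1.02 and -1.48, edgeR adjusted p = 0.00173 and 0.000922). Whether the share of male and female RNA differed between these groups was not tested.

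Many photoreceptor genes were lower in both comparisons. Of 46 tested, 28 were lower DETs in PWOFC compared with PD flies (median -1.97), and 6 passed the interaction test, 4 with a more negative and 2 with a more positive change without rotenone. None passed with all 6 groups in 1 fit. *inaC* had 5.28, 1.22, and 7.03 CPM in PWOFC libraries, against 55.5, 49.2, and 49.9 CPM in PD libraries (log2 fold change -3.51, edgeR adjusted p = 0.00265, interaction adjusted p = 0.737). *Obp56a* (log2 fold changes of -2.63 in CWOFP compared with CTRL flies and -2.63 in PWOFC compared with PD flies) and *Obp56d* (-2.27 and -2.67) were DETs in both, and so were *Mip* (-2.30 and -2.78) and *CheB38b* (-4.15 and -6.29), with interaction adjusted p of 0.93, 0.352, 0.31, and 0.113 by edgeR. A p that misses the threshold does not show that the changes were alike. Over the whole lists, 22 of 34 odorant-binding and 20 of 30 neuropeptide genes were lower in PWOFC flies, against 23.3% of all genes. Of 35 odorant-binding genes 14 passed the interaction test with a more positive and 2 with a more negative change without rotenone. Of 31 neuropeptide genes 9 and 1 did, and of all genes 13.8% and 23.4%. With all 6 groups in 1 fit, 7 odorant-binding and 0 neuropeptide genes passed with a more positive change. PWOFC and CWOFP libraries share their day of collection, as do PD and CTRL libraries, so age and any batch of the day cannot be told apart in this comparison either. Between PWOFC and PD flies the time off rotenone differs as well, and it cannot be told apart from age or batch.

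**Figure D4:**
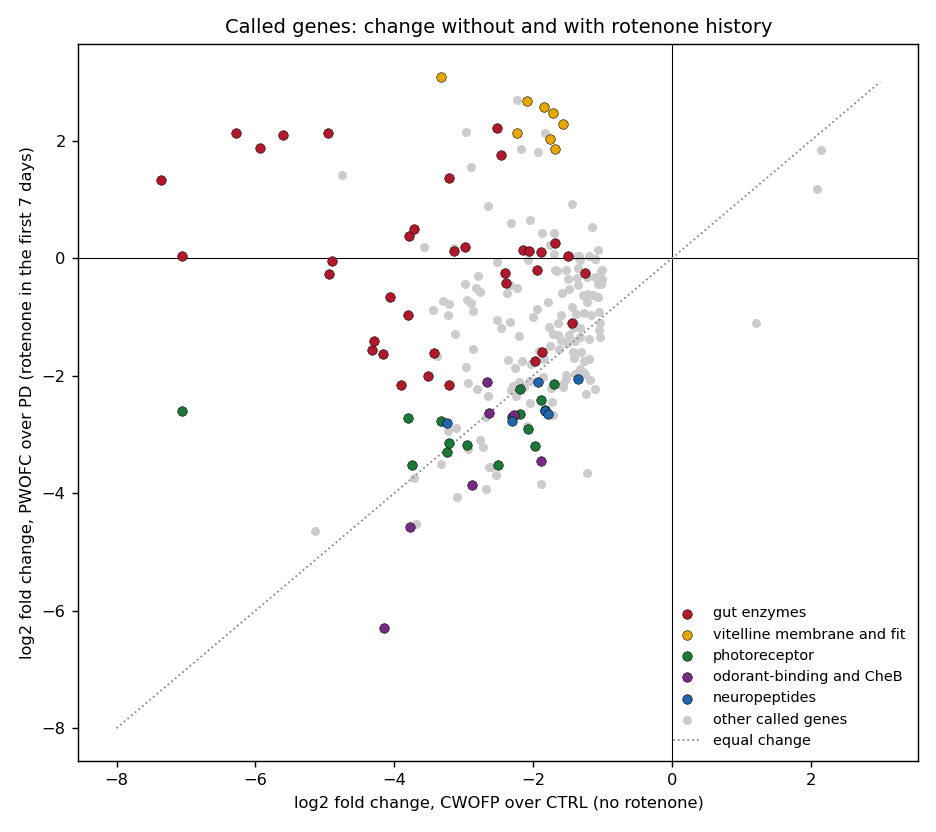
Log2 fold change of CWOFP over CTRL flies (horizontal) and of PWOFC over PD flies (vertical) for the DETs of the first comparison that were tested in the second, colored by gene group; the dotted line marks equal changes. The photoreceptor, neuropeptide, and odorant-binding genes lie below 0 on both axes and mostly near the line, with *inaF-B* and *CheB38b* far from it, the gut enzymes lie mostly above the line, and the vitelline membrane genes and *fit* are above 0 on the vertical axis.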

How the data were processed

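Poly(A) RNA of whole flies was sequenced in 18 libraries of 6 groups, of which the 3 CWOFP and 3 CTRL libraries were compared here. The authors trimmed reads with cutadapt, mapped them to dm6 with HISAT2, counted reads per FlyBase gene with featureCounts, and deposited whole-number counts without normalization. The submitters' processing notes also name StringTie 1.3.1 and DESeq2 1.36.0. How strand and multiple matches were handled is not given in the sources used here, so counts of overlapping genes and near-identical copies are uncertain. Methods and labels name different sequencing instruments. Of 17611 gene identifiers 17556 had a position in the Ensembl annotation BDGP6.54, and positions in the text are on this annotation, which has the same release 6 assembly as dm6. The other 6 samples, given microbiota from people, were left out.

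Counts were tested with edgeR 4.0.16 in R 4.3.3 (filterByExpr, TMM, glmQLFit with robust estimation, glmQLFTest, Benjamini-Hochberg adjustment over all genes tested), on the libraries of the groups compared and with no covariate. SEs are the absolute log2 fold change divided by the root of the test's F. CPM used TMM-scaled sizes of all 18 libraries. Alternatives were relative log expression and upper quartile scaling, no filter, at least 50 counts in 3 libraries, DESeq2 1.42.0, no fold threshold, all 6 groups in 1 fit, a replicate block, and each library left out. The fits were tested on simulated counts. Genes named follow a rule: the 15 called genes with the lowest and, as only 4 were called, all with the highest log2 fold change (groups not overlapping, 10 or more counts in each library of the group with the higher level), up to 4 called members of each list (or the 2 with the highest CPM), the yolk protein, roX, and mitochondrial rRNA genes, and others of interest chosen after their values were seen: further members of the lists, the *Lsp1alpha* marker, and those said to be so in the text. The groups, gene lists, and rules were chosen with earlier results of these data known. Figures were drawn with matplotlib 3.10.9 in Python 3.11.15.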

Additional observations from a re-analysis of the deposited data

Results flagged for a closer look

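Changes between the ages that differed by rotenone history stood out. PD flies were taken at the end of rotenone feeding, so in flies with rotenone history time off rotenone differs together with age. In the interaction of age with rotenone history, tested with edgeR over the 12 CWOFP, CTRL, PWOFC, and PD libraries, 4760 of 12817 genes passed an adjusted p under 0.05, and 110 of the 227 genes lower in CWOFP flies did. Of the 15 lower and 4 higher DETs with the largest log2 fold changes 14 passed, and they are given here because they passed. The log2 change of untreated flies minus that of flies with rotenone history was -8.75 for *CG18179*, -8.49 for *Jon25Bii*, -7.89 for *Jon25Bi*, -7.77 for *CG6296*, -7.17 for *LManIV*, and -7.16 for *LysB*. It was -6.23 for *CG9988*, -4.92 for *CG18180*, -4.73 for *mag*, -4.50 for *inaF-B*, -2.95 for *Jon25Biii*, -2.84 for *LManV*, -2.61 for *LManIII*, and 2.24 for *CG14419*. The interaction adjusted p of these genes by edgeR was between 0.000739 for *CG18179* and 0.0483 for *LManIII*. The others did not pass: *CG14607* (-0.57, adjusted p = 0.556), *CheB38b* (2.09, adjusted p = 0.113), *Sox21a* (0.84, adjusted p = 0.264), *cGlr1* (0.25, adjusted p = 0.831), and *lncRNA:CR45472* (2.37, adjusted p = 0.0658), by edgeR. The DETs were chosen on 6 of the 12 libraries, which favors a difference in the direction of their own change.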

How the results depend on the processing

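The number of genes called between CWOFP and CTRL flies was 231 and ranged from 54 to 257 with 1 library left out. DESeq2 called 522, of which 20.3% were higher, against 1.73% by edgeR. With the other scalings, filters, and fits it stayed within 1.5 times, between 182 with upper quartile scaling and 345 with all 6 groups in 1 fit. Between PWOFC and PD flies 4100 genes were called, 7966 without a threshold on the fold change and 2388 with all 6 groups in 1 fit (49.2% higher), and between 3435 and 4535 with 1 library left out. The interaction passed for 4760 genes, for 347 with all 6 groups in 1 fit, and for between 1651 and 5977 with 1 library left out. Upper quartile scaling moved the median over all genes to -0.39 (log2) between PWOFC and PD flies, and the higher share of calls there to 13.1% (29.2% with TMM) and the positive share in the interaction to 70.8% (37.0% with TMM). Leaving out the mitochondrial rRNA, chosen after the data were seen, gave 237 calls between CWOFP and CTRL flies but moved the positive share in the interaction to 58.8%. Deviations from the group mean were correlated at r = 0.119, -0.0584, and 0.0869 between same-numbered libraries. These values lay within those of differently numbered libraries (-0.18 to 0.128). With 3 libraries per group they cannot show whether the numbers pair the samples. With a replicate block the counts were 265 between CWOFP and CTRL flies, 4124 between PWOFC and PD flies, and 4190 in the interaction. Of the 231 DETs 181 to 229 were kept under the other scalings, filters, and fits, except the stricter filter, which tested 210 and kept 201, and none changed sign. The causes of these differences were not tested. At these depths, genes with under 1 CPM rest on few counts, and 3 libraries per group limit every call.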
